A study of Mus musculus with 8 samples.

Results

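The 10 mouse genes described here, Bcl2, Bcl2l1, Mcl1, Bax, Bak1, Bbc3, Pmaip1, Bid, Bcl2l11 and Bad, are the best known regulators of the mitochondrial route of apoptosis. They were found by the accession that the array design gives each probe, which tied 13 non-control probes to the 10 genes, of 20145 genes that could be named on the array. All 13 probes were well above background on all 8 arrays, so no member was lost to the filter on dim probes. RNA of ovarian neoplasia from Pgrcre/+mPgrLsL/+ mice (5 arrays) was set against RNA of ovary from wildtype mice (3 arrays). All mice were 33 weeks old and cycling, and no treatment is given for either group. The tested genotype joins a cre allele of Pgr, the progesterone receptor gene, to a receptor allele behind a removable stop cassette, which the design text writes as the B form of the receptor. Cre in these mice is therefore made where Pgr is active, and the RNA came from whole tissue of mixed cell types. No label says that each array stands for a separate mouse, so that p-values here cover the scatter among these samples, which may in part be technical.

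Proteins of the Bcl2 family decide whether the outer membrane of the mitochondrion stays closed. Bcl2, Bcl2l1 (Bcl-xL) and Mcl1 keep it closed, Bax and Bak1 open it, and the BH3-only proteins Bbc3 (Puma), Pmaip1 (Noxa), Bid, Bcl2l11 (Bim) and Bad carry stress signals to both. Opening releases cytochrome c, which activates caspases through Apaf1. In the mouse ovary this route is known for the loss of oocytes and of granulosa cells from follicles that do not ovulate, and Bax is needed for part of that loss. The array measures mRNA, whereas Bid and Bad are switched mainly by cleavage and phosphorylation of the protein, and Mcl1 by rapid turnover.

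Values below are log2 of the processed intensity relative to the 75th percentile of the array. A difference was called at an adjusted p under 0.05 in limma with Benjamini-Hochberg adjustment over all 29453 features. Levels of different probes cannot be ranked against each other on such arrays, so members are compared by their differences between the groups. The 75th percentile itself was at 309 to 429 intensity units on the neoplasia arrays, against 462 to 515 on the wildtype arrays. A probe of Pgr was higher on the neoplasia arrays by 9.13 ± 0.73 (SE, adjusted p 0.000134 in the fit over probes), with levels of 3.12 to 4.88 there, against -7.22 to -4.19 on the wildtype arrays, 2 of which were well above background. The second Pgr probe was not well above background on any neoplasia array and was at least 5.68-fold lower than on the wildtype arrays. The wildtype arrays differed from each other by 0.30 to 0.48 in mean absolute log2 value and the neoplasia arrays by 0.58 to 0.95. Neoplasia 5 was nearest to the wildtype arrays, at 0.93 to 0.95 against 1.03 to 1.29 for neoplasia 1 to 4. It also shared slide row 2 with the wildtype arrays, while neoplasia 1 to 4 filled slide row 1. Slide row here is the number that follows the slide code in the array barcode, taken as a position. The sample labels do not give it.

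Expression of 5 of the 10 members was higher in neoplasia and of 0 was lower, where 15.4% of all features were called higher and 13.6% lower. Of the 3 survival members, 1 rose (Bcl2l1). Of the 7 death members, 4 rose (Pmaip1, Bcl2l11, Bbc3 and Bax). The same 5 genes had every neoplasia array above every wildtype array, a pattern found in 21.6% of all features, and no member had the opposite pattern. The median log2 fold change was 0.52 for the survival members and 0.82 for the death members, against 0.11 for all features. In a fit over the 21580 features above background on all 8 arrays, as the members were, the median was 0.23. There 4270 features were called higher and 2143 lower. The difference between the 2 roles was not tested, and their fold changes overlapped widely, at -0.20 to 2.55 for the survival members and 0.44 to 6.92 for the death members. The fold change of Pmaip1 was at the 99.8th percentile of all features, that of Bcl2l1 at the 97.4th and that of Bcl2l11 at the 96.1st.

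**Figure D1:**
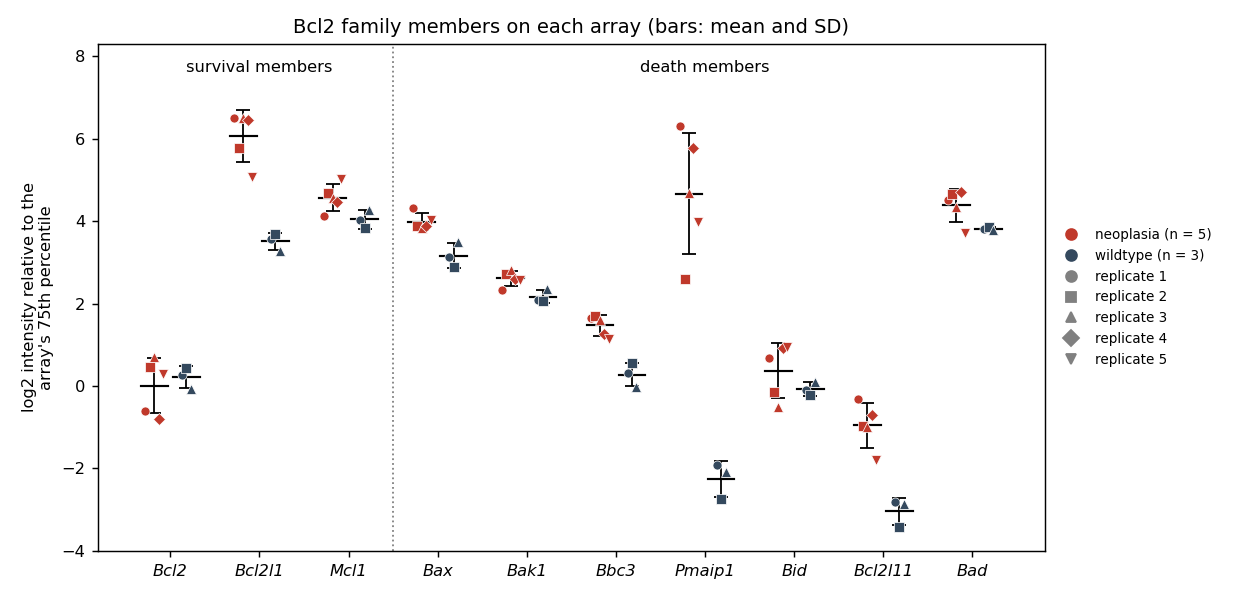
Level of each of the 10 members on each array, as log2 intensity relative to the 75th percentile of the array, with 1 point per array, neoplasia left of wildtype, and lines at the group means. The neoplasia points lie wholly above the wildtype points for Bcl2l1, Bax, Bbc3, Pmaip1 and Bcl2l11, and overlap them for the other 5 members.

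**Figure D2:**
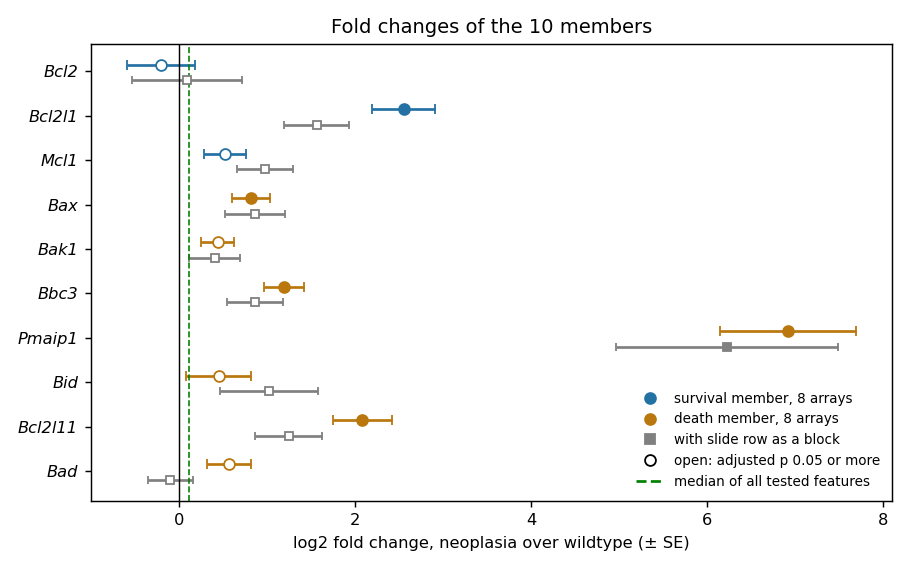
Log2 fold change of each member, neoplasia over wildtype, with its standard error from limma (5 neoplasia and 3 wildtype arrays). Among the circles, the survival members span -0.20 to 2.55 and the death members 0.44 to 6.92, and the 5 filled circles passed an adjusted p of 0.05. Grey squares give each estimate with slide row as a block, where only that of Pmaip1 is filled. The dashed line marks the median of all tested features.

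Sequences before the annotated starts of the members are given because the death genes that rose are textbook targets of p53 and FOXO factors, and because the mice carry an added progesterone receptor. RefSeq promoter windows (build GRCm38.p6) were matched for 9 of the members and gave 15 windows of the 250 bases before a start. No window was matched for Pmaip1, the member with the largest rise, so nothing below covers it. Both strands were searched for the p53 half-site, the FOXO site GTAAACA, the STAT site TTCNNNGAA, the progesterone receptor half-site TGTTCT and the GC box GGGCGG. Capitals mark matches to any of these but the GC box, and no marked matches overlap. The Bax window (chr7:45466899-45467148, minus strand) holds a p53 half-site 201 bases before the start, the Bbc3 window (chr7:16310011-16310260, plus strand) a FOXO site 167 bases before it, and the Bcl2l11 window (chr2:128125788-128126037, plus strand) a FOXO site 227 bases before it. The Bcl2l1 window (chr2:152831729-152831978, minus strand) is 1 of 3 windows of the survival member that rose and is shown as a window with no match. No marked match was found in its other windows or in any window of Bcl2, Mcl1, Bak1, Bid or Bad. The windows of Bbc3 and Bcl2l11 that are not printed had none either.
Bax: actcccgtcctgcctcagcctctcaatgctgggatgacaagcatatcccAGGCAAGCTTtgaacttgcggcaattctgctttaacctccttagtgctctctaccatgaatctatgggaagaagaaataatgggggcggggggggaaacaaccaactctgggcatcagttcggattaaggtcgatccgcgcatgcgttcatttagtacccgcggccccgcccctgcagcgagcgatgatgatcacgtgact
Bbc3: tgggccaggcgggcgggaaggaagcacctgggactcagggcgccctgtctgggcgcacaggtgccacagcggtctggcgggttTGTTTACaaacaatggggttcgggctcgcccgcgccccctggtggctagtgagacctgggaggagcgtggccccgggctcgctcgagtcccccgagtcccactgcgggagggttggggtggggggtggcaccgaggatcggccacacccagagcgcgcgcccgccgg
Bcl2l11: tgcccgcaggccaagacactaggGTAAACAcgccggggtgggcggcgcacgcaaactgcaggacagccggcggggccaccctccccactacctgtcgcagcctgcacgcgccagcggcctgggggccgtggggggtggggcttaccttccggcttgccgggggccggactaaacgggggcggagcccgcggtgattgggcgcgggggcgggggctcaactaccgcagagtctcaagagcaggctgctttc
Bcl2l1: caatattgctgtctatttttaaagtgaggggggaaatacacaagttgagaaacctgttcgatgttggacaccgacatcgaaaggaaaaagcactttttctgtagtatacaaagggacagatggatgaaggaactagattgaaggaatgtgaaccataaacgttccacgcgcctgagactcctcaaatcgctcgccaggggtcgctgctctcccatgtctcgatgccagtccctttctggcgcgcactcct
The p53 half-site was in 1 of the 15 windows and in 7.13% of all 32851 windows of the same length, and the FOXO site in 2 windows and in 3.17%. The progesterone receptor half-site was in 0 of the 15 windows (16.1% of all windows) and the STAT site in 0 (7.02%). The GC box was in 10 of the 15 windows, against 32.7% of all. A match describes letters in these windows and is not evidence that a factor binds there.

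Among the survival members, Bcl2l1 stood apart. It encodes Bcl-xL, which holds Bax, Bak1 and BH3-only proteins in check, and splicing of the same transcript can also give a shorter form that favours death. The probe that stands for the gene read 6.51, 5.76, 6.49, 6.46 and 5.07 in neoplasia 1 to 5, against 3.56, 3.68 and 3.29 in wildtype 1 to 3. In processed intensity these were 28105.5, 23291.2, 32716.7, 29735.6 and 12074.5 in neoplasia, against 6027.7, 6592.3 and 4511.2 in wildtype. Neoplasia 5 was the lowest of its group and still lay above every wildtype array. The log2 fold change was 2.55 ± 0.36 (SE), or 5.86-fold, with an adjusted p of 0.00226. With slide row as a block, an estimate that rests on neoplasia 5 against the wildtype arrays, it was 1.56 with an adjusted p of 0.0543.

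The second Bcl2l1 probe is far dimmer and gave almost the same difference. It read 1.52, 1.28, 1.42, 1.42 and 0.39 in neoplasia, against -1.18, -1.28 and -1.51 in wildtype, again with no overlap. Its log2 fold change was 2.53 ± 0.29, or 5.76-fold (adjusted p 0.000781 in the fit over probes, where 15.6% of probes were called higher and 13.5% lower). Which splice form either probe reads is not stated in the files.

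Bcl2, the founding member of the family, had log2 values of -0.61, 0.47, 0.70, -0.81 and 0.30 in neoplasia, against 0.27, 0.45 and -0.08 in wildtype. The neoplasia arrays fell on both sides of the wildtype arrays. Its mean was 0.01 ± 0.68 in neoplasia and 0.21 ± 0.27 in wildtype (SD, n = 5 and 3), a difference of -0.20 ± 0.39 (adjusted p 0.711). It was the only member with a negative fold change, and that sign turned with slide row as a block (0.087). It was -0.80 under spike-in scaling (adjusted p 0.331).

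Mcl1, a short-lived survival protein that Pmaip1 and Bcl2l11 can bind, read 4.11, 4.68, 4.56, 4.46 and 5.02 in neoplasia, against 4.04, 3.82 and 4.28 in wildtype. Only neoplasia 1 lay within the wildtype range. The difference of 0.52 ± 0.24 did not pass the test (adjusted p 0.132) and turned to -0.036 under quantile normalization and -0.072 under scaling on spike-in controls. The second Mcl1 probe gave the same difference, 0.52 ± 0.42, from another pattern. It read 1.16, 1.40, 1.26, 1.35 and 2.97 in neoplasia, against 1.06, 0.86 and 1.40 in wildtype, so that neoplasia 5 alone was well clear of the wildtype arrays. With slide row as a block, which sets neoplasia 5 against the wildtype arrays, the second probe gave 1.86 and passed the test (adjusted p 0.0143), and the first gave 0.97.

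**Figure D3:**
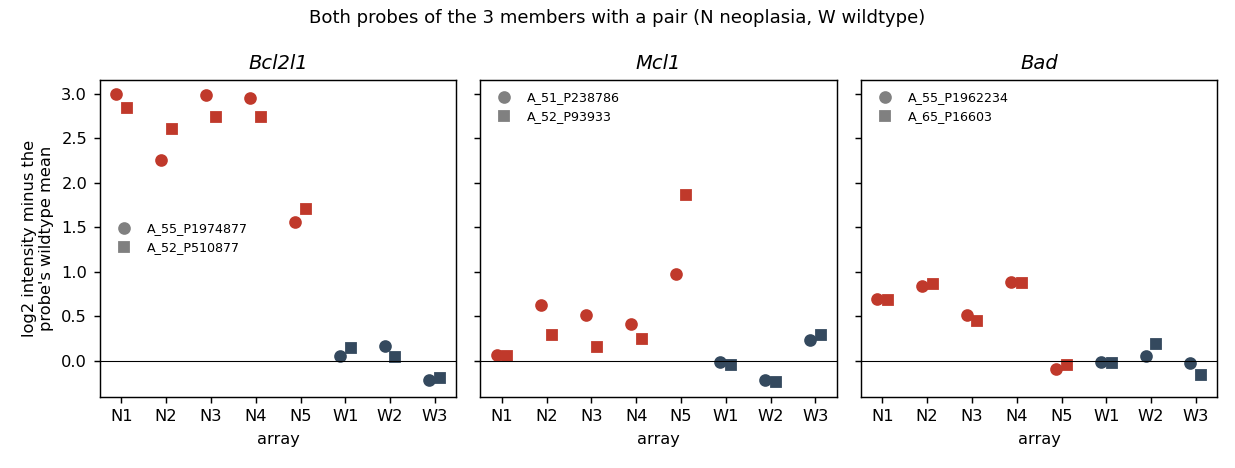
Both probes of Bcl2l1, Mcl1 and Bad on each array, as log2 intensity minus the probe's wildtype mean, with circles for the probe that stands for the gene and squares for the second probe. The pairs give differences of 2.55 and 2.53 for Bcl2l1 and 0.57 and 0.57 for Bad, while neoplasia 5 separates the pair of Mcl1.

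Bax and Bak1, the pore-forming members, differed less than Bcl2l1. Bax read 4.32, 3.88, 3.83, 3.88 and 4.03 in neoplasia, against 3.13, 2.88 and 3.49 in wildtype, and the groups did not overlap. Its mean was 3.99 ± 0.20 in neoplasia and 3.17 ± 0.31 in wildtype (SD, n = 5 and 3). The log2 fold change of 0.82 ± 0.21, or 1.77-fold, passed the test with an adjusted p of 0.0251. That call did not hold under every setting. It was lost without wildtype 1 (0.80, adjusted p 0.101), without wildtype 2 (0.68, adjusted p 0.110), under quantile normalization (0.37, adjusted p 0.176), under spike-in scaling (0.23, adjusted p 0.855), on the authors' unscaled values (0.35, adjusted p 0.180) and with slide row as a block (0.86, adjusted p 0.183). Bak1 read 2.34, 2.73, 2.82, 2.60 and 2.58 in neoplasia, against 2.10, 2.06 and 2.36 in wildtype. Only neoplasia 1 fell below the highest wildtype array, and the difference of 0.44 ± 0.19 did not pass the test (adjusted p 0.110) and turned to -0.15 under spike-in scaling and -0.031 on the authors' values.

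Pmaip1, which encodes Noxa, a BH3-only protein that neutralises Mcl1, had by far the widest difference of the 10 members. It read 6.31, 2.61, 4.69, 5.77 and 3.98 in neoplasia, against -1.91, -2.75 and -2.09 in wildtype. The processed intensity was 24483.8, 2607.9, 9374.5, 18363.1 and 5643.2 in neoplasia, against 135.5, 76.7 and 108.7 in wildtype. The dimmest neoplasia array was well above the brightest wildtype array, and the neoplasias themselves spread over 3.70 log2 units. The log2 fold change was 6.92 ± 0.77, or 121-fold (adjusted p 0.000712), and it was called under all 20 alternatives, with values of 6.21 to 7.43. With slide row taken as a block the value was 6.23 (adjusted p 0.0332).

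Bcl2l11, which encodes Bim and is the BH3-only gene most closely tied to FOXO factors, read -0.31, -0.98, -0.99, -0.71 and -1.79 in neoplasia, against -2.82, -3.42 and -2.87 in wildtype. Every neoplasia array was above the wildtype range. The log2 fold change was 2.08 ± 0.34, or 4.24-fold (adjusted p 0.00397). The value was 1.25 when slide row entered as a block (adjusted p 0.106) and 1.49 under spike-in scaling (adjusted p 0.101). The probe is listed under 1 transcript of the gene, and which of the protein forms of Bim it reports is not stated.

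Bbc3, which encodes Puma, a p53 target that binds all survival members, read 1.66, 1.69, 1.60, 1.27 and 1.14 in neoplasia, against 0.31, 0.55 and -0.02 in wildtype. Its mean was 1.47 ± 0.25 in neoplasia and 0.28 ± 0.29 in wildtype (SD, n = 5 and 3), and the groups were well apart. The log2 fold change was 1.19 ± 0.22 (adjusted p 0.00743). It lost the call on the authors' unscaled values (0.72, adjusted p 0.0674), under spike-in scaling (0.60, adjusted p 0.533) and with slide row as a block (0.86, adjusted p 0.164).

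The remaining BH3-only members, Bid and Bad, overlapped between the groups. Bid, the link from caspase 8 to the mitochondrion, read 0.68, -0.16, -0.51, 0.92 and 0.95 in neoplasia, against -0.10, -0.22 and 0.10 in wildtype, a difference of 0.45 ± 0.37 (adjusted p 0.382). Of the neoplasias, 3 were above the wildtype range, 1 was within it and 1 below it, and the sign of the difference turned under spike-in scaling (-0.14) and on the authors' values (-0.022). In slide row 2 alone, where neoplasia 5 is the only neoplasia array, Bid was 1.02. Bad, which displaces Bax and BH3-only proteins from Bcl2 and Bcl-xL, read 4.51, 4.66, 4.34, 4.71 and 3.72 in neoplasia, against 3.80, 3.87 and 3.79 in wildtype. Neoplasia 1 to 4 were above all wildtype arrays and neoplasia 5 was below them. The difference was 0.57 ± 0.25 with an adjusted p of 0.122, and without neoplasia 5 it was 0.73 with an adjusted p of 0.0153. It was 0.042 under quantile normalization, 0.096 on the authors' values, -0.026 under spike-in scaling and -0.097 when slide row was a block. The second Bad probe gave 0.57 ± 0.25 (adjusted p 0.123 in the fit over probes).

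The choice of scaling moved the whole distribution, and the modest differences above have to be read against it. The median log2 fold change of all features was 0.11 as reported, 0.22 after normexp background correction, 0.032 under quantile normalization, -0.34 on the authors' values and -0.48 under spike-in scaling. Of all called features, 53.03% were higher in neoplasia as reported, against 67.3%, 49.8%, 19.9% and 14.2% under those 4 settings. The spike-in level was 8.89 on neoplasia 1 and 10.18 to 10.75 on the other neoplasia arrays, against 10.03 to 10.14 on the wildtype arrays. Mcl1, Bak1, Bid and Bad changed sign under at least 1 of these scalings, whereas Bcl2l1, Bax, Bbc3, Pmaip1 and Bcl2l11 were positive under all of them.

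**Figure D4:**
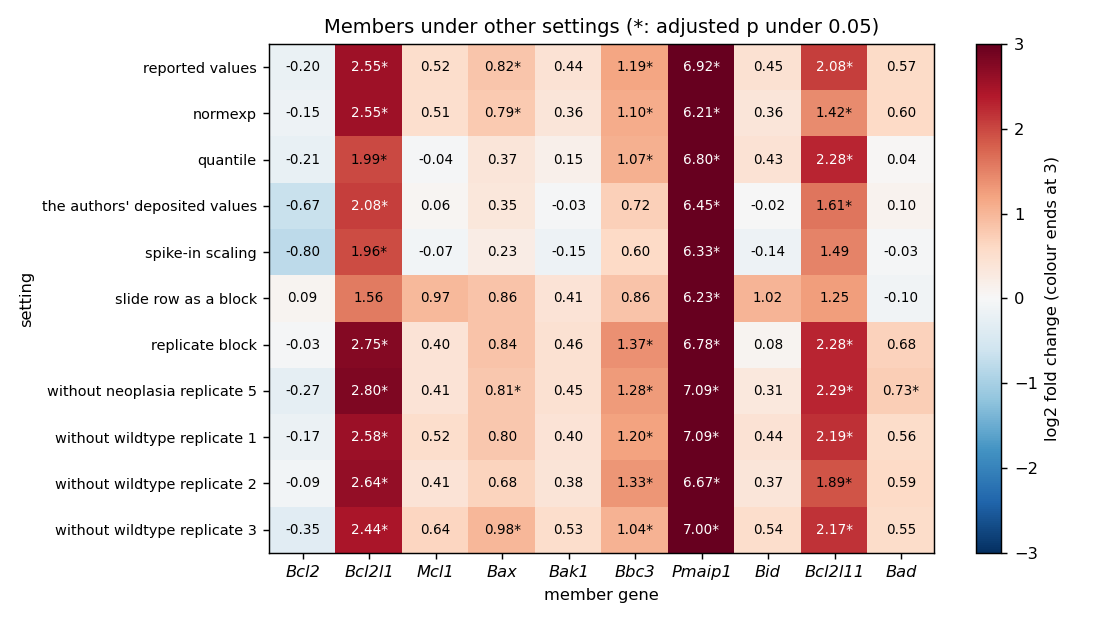
Log2 fold change of each member, neoplasia over wildtype, under the reported setting (top line) and 10 alternatives, with an asterisk where the adjusted p was under 0.05. Pmaip1 carries an asterisk on every line and Bcl2l1 on every line but that of slide row as a block, while Bax loses it under several scalings and without wildtype 1 or 2.

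Levels of markers of several cell types also differed between the groups. The counts of markers below stand beside 15.4% of all features called higher and 13.6% called lower. Of oocyte markers, 14 of 14 were lower in neoplasia, and their summed level was 0.42 to 0.70 there, against 33.2 to 43.0 in wildtype, with 8 of the 14 not above background on any neoplasia array. Granulosa cell markers were lower for 8 of 12 (summed 74.4 to 141 in neoplasia, against 224 to 310 in wildtype) and luteal cell markers for 8 of 8 (52.2 to 147 in neoplasia, against 429 to 783 in wildtype). The other 6 oocyte markers were each above background on at least 1 neoplasia array, among them Gdf9 on 5 of 5 and Zp3 on 3 of 5. Erythrocyte markers were higher for 5 of 5 tested (377 to 1717 in neoplasia, against 9.06 to 27.1 in wildtype), macrophage markers for 8 of 10 (120 to 229, against 55.9 to 60.3) and neutrophil markers for 5 of 8, with 1 lower (515 to 1604, against 108 to 129). Epithelial markers were higher for 2 of 8 and lower for 2, with a summed level of 179 to 767 in neoplasia, against 12.5 to 70.6 in wildtype. Endothelial markers were higher for 2 of 6 and lymphocyte markers for 2 of 12, with 1 lower. Of 8 stromal markers 1 was called higher and 0 lower, while 7 had negative fold changes and the median was -1.74. Their summed level was 137, 78.4, 108 and 207 in neoplasia 1 to 4 and 718 in neoplasia 5, against 280 to 368 in wildtype, so that neoplasia 5 stood above all other arrays. In bulk RNA, fewer cells of a type and less RNA per cell cannot be told apart, and the part of this shift in the differences of the members was not tested.

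A list of 16 further genes held relatives of the Bcl2 family and genes named for a link to it, such as Bclaf1. Of these 16 genes, 13 were tested, of which 2 rose, 1 fell and 10 were not called. The median log2 fold change was -0.17. Over all features, 15.4% were called higher and 13.6% lower. Bcl2l10, a relative of Bcl2 known in the mouse from oocytes, fell most. It read -6.96, -7.29, -7.41, -6.82 and -6.62 in neoplasia, where it was not well above background on any array, against -0.29, -0.20 and 0.09 in wildtype. It was at least 50.7-fold lower in neoplasia (adjusted p 4.44e-06), alongside the oocyte markers given above, whose part in it was not tested.

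Bcl2a1d, a survival gene of blood cells, read 2.80, 3.79, 3.10, 2.65 and 4.03 in neoplasia, against 1.33, 1.19 and 0.67 in wildtype. It rose by 2.21 ± 0.36, or 4.64-fold (adjusted p 0.00431), under every alternative run, together with the macrophage and neutrophil markers, whose part was not tested. Its near-identical neighbours Bcl2a1a and Bcl2a1b had no named probe, so signal shared among the copies cannot be told apart. Bnip3, a mitochondrial protein induced by low oxygen, read 7.17, 5.58, 5.84, 6.78 and 7.38 in neoplasia, against 4.74, 4.97 and 5.05 in wildtype. It rose by 1.63 ± 0.44 (adjusted p 0.0271), a call that was lost without neoplasia 4 (adjusted p 0.0574) or without any 1 of the wildtype arrays (adjusted p 0.0696 to 0.103). It was also lost under quantile normalization (0.88, adjusted p 0.140), under spike-in scaling (1.04, adjusted p 0.282), with the replicate number as a block (1.28, adjusted p 0.108) and with slide row as a block (2.46, adjusted p 0.0615).

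Bok, a pore-forming relative of Bax and Bak1, differed widely among the neoplasias. It read -0.06, 0.58, 1.38, 1.35 and 3.94 in neoplasia, against 3.44, 3.61 and 3.33 in wildtype. Neoplasia 1 to 4 were below all wildtype arrays and neoplasia 5 was above them. The difference was -2.02 ± 0.78 (adjusted p 0.0825), and without neoplasia 5 it was -2.65 (adjusted p 0.00240). It also passed under spike-in scaling (-2.62, adjusted p 0.00417), with the replicate number as a block (-2.82, adjusted p 0.0147) and on the authors' values (-2.49, adjusted p 0.0478), and turned to 0.48 with slide row as a block. The other genes of this list that did not pass the test included Bcl2l2 (-0.49), which encodes the survival protein Bcl-w. The BH3-only genes Bik (0.78) and Bmf (-0.17) did not pass either. Nor did Bcl2l12 (-0.30), Bcl2l13 (0.24), Bcl2l14 (-0.46), Bcl2l15 (2.35), Bnip3l (0.29) or Bclaf1 (-0.27), which is not itself a family protein. Bik passed without neoplasia 1 (1.03, adjusted p 0.0361) and Bcl2l15 without wildtype 2 (3.48, adjusted p 0.0445). In slide row 2 alone, where neoplasia 5 is the only neoplasia array, Bik was 1.52 and Bnip3l 1.49. On the authors' values Bcl2l2 (-0.96, adjusted p 0.0207), Bcl2l12 (-0.77, adjusted p 0.0464) and Bclaf1 (-0.72, adjusted p 0.0152) passed in the downward direction, as did Bclaf1 under quantile normalization (-0.80, adjusted p 0.00654). The probe of the BH3-only gene Hrk did not pass the filter on dim probes.

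Downstream of the mitochondrion, 2 of 22 execution genes rose and 3 fell, with a median log2 fold change of -0.043. These counts are not above the shares over all features, where 15.4% rose and 13.6% fell. Birc3, an inhibitor of apoptosis protein that acts in NF-kB signalling, rose by 1.72 ± 0.24 (adjusted p 0.00189). Htra2, a mitochondrial protease released with cytochrome c, rose by 1.67 ± 0.32 (adjusted p 0.00792). Parp1, a DNA repair enzyme cleaved by caspases, fell by 1.38 on the log2 scale (SE 0.26, adjusted p 0.00741). Casp9, the first caspase of this route, fell by 0.64 (SE 0.17, adjusted p 0.0260), with 1.95 to 2.26 in neoplasia, against 2.60 to 2.83 in wildtype. Dffb, the nuclease that cuts DNA in dying cells, fell by 1.12 (SE 0.32, adjusted p 0.0336). The calls of Casp9 and Dffb were lost without any 1 of the wildtype arrays (adjusted p 0.0723 to 0.107 and 0.0802 to 0.116), and without neoplasia 3 the adjusted p was 0.0506 for Casp9 and 0.0661 for Dffb. Dffb was also lost without neoplasia 1, 2 or 4 (adjusted p 0.0558 to 0.0668), and the list held 5 risen genes without neoplasia 5. Under spike-in scaling the adjusted p was 0.142 for Birc3 (1.13), 0.232 for Htra2 (1.08) and 0.111 for Casp9 (-1.24). When slide row entered as a block, it was 0.206 for Htra2 (0.90), 0.0597 for Parp1 (-1.63), 0.118 for Casp9 (-0.77) and 0.712 for Dffb (-0.21). The replicate number as a block gave 0.0688 for Parp1 and 0.147 for Casp9, and the adjusted p of Dffb was 0.123 under normexp (-0.36) and 0.0595 under quantile normalization.

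In the death receptor route, which can reach the mitochondrion through Bid, 6 of 16 genes rose and 0 fell, with a median of 0.59. The shares over all features were 15.4% and 13.6%, and the list was not tested against them. Mlkl, the membrane-permeabilising protein of necroptosis, rose by 1.89 ± 0.23 (adjusted p 0.00118), with -0.49 to 0.38 in neoplasia, against -1.83 to -1.76 in wildtype. Casp8, the initiator caspase that cleaves Bid, rose by 1.73 ± 0.33 (adjusted p 0.00834), with 2.23 to 3.67 in neoplasia, against 0.75 to 1.19 in wildtype. Tnf, a death receptor ligand made largely by macrophages, rose by 2.42 ± 0.49 (adjusted p 0.00965) and was above background on 5 of 5 neoplasia and 1 of 3 wildtype arrays. Its call was lost with the replicate number as a block (2.65, adjusted p 0.0515) and with slide row as a block (2.58, adjusted p 0.112). Ripk3, the kinase upstream of Mlkl, rose by 1.38 ± 0.34 (adjusted p 0.0200), a call lost without any 1 of the wildtype arrays (adjusted p 0.0604 to 0.0822). Under spike-in scaling the adjusted p was 0.0700 for Mlkl (1.30), 0.245 for Casp8 (1.13) and 0.381 for Ripk3 (0.78). Casp8 was also lost with slide row as a block (adjusted p 0.166), and Ripk3 with the replicate number as a block (adjusted p 0.0650) and on the authors' values (adjusted p 0.0658). Macrophage markers rose beside this list, as given above, and their part was not tested. Without wildtype 1 or wildtype 2 the count of risen genes was 4.

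Of 23 genes that control the transcription or stability of the members, 6 rose and 2 fell, with a median of 0.32. Among all features 15.4% rose and 13.6% fell, and the list was not tested against these shares. Atf4, the stress factor that can induce Pmaip1 and Bbc3, rose by 1.58 ± 0.24 (adjusted p 0.00313), with 7.24 ± 0.30 in neoplasia and 5.66 ± 0.30 in wildtype (SD, n = 5 and 3). Its partner Ddit3 (CHOP) rose by 0.87 ± 0.28 (adjusted p 0.0459), a call lost when any array but neoplasia 1 was left out (adjusted p up to 0.159). E2f1, a cell cycle factor that can induce BH3-only genes, rose by 1.46 ± 0.32 (adjusted p 0.0142), but not past the threshold without wildtype 1 (adjusted p 0.0705) or wildtype 2 (adjusted p 0.0604). Rela, an NF-kB subunit that can induce Bcl2l1, rose by 1.07 ± 0.22 (adjusted p 0.0106), but the call was lost without wildtype 1 (adjusted p 0.0543), under quantile normalization (0.34, adjusted p 0.228), under spike-in scaling (0.48, adjusted p 0.626), on the authors' values (0.60, adjusted p 0.109) and with slide row as a block (0.64, adjusted p 0.225).

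Foxo1, a forkhead factor that can induce Bcl2l11, fell by 2.20 on the log2 scale (SE 0.31, adjusted p 0.00230), with 1.55 to 2.89 in neoplasia, against 4.44 to 4.62 in wildtype, alongside the granulosa cell markers, whose part was not tested. The part of Foxo1 in the level of Bcl2l11 was not tested. Stat5a, which carries prolactin signals and can induce Bcl2l1, read -2.61, 0.90, 0.04, -0.94 and -0.64 in neoplasia, against 1.81, 1.11 and 1.93 in wildtype, and fell by 2.27 (SE 0.69, adjusted p 0.0405). That call was lost without neoplasia 3, 4 or 5 (adjusted p 0.0520 to 0.0799) or any 1 of the wildtype arrays (adjusted p 0.0846 to 0.129). Trp53, named after its values were seen because Bax, Bbc3 and Pmaip1 are targets of p53, read -0.77, -0.92, -0.82, -1.27 and -1.80 in neoplasia, against -1.37, -1.47 and -1.27 in wildtype, a difference of 0.26 ± 0.27 (adjusted p 0.490) that was negative under spike-in scaling. Spike-in scaling gave an adjusted p of 0.223 for Atf4 (0.99), 0.805 for Ddit3 (0.27) and 0.370 for E2f1 (0.87). Slide row as a block gave 0.0574 for Atf4, 0.315 for Ddit3, 0.321 for E2f1 (0.74), 0.0739 for Foxo1 (-1.76) and 0.293 for Stat5a. Ddit3 was also lost under quantile normalization (adjusted p 0.0980) and on the authors' values (adjusted p 0.356), and with the replicate number as a block the adjusted p was 0.151 for Ddit3 and 0.130 for Stat5a. The count of risen genes in the list was 1 without wildtype 1, 2 without wildtype 2 and 3 without wildtype 3, neoplasia 3 or neoplasia 4. Without neoplasia 3, neoplasia 4 or any 1 of the wildtype arrays 1 gene fell.

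**Figure D5:**
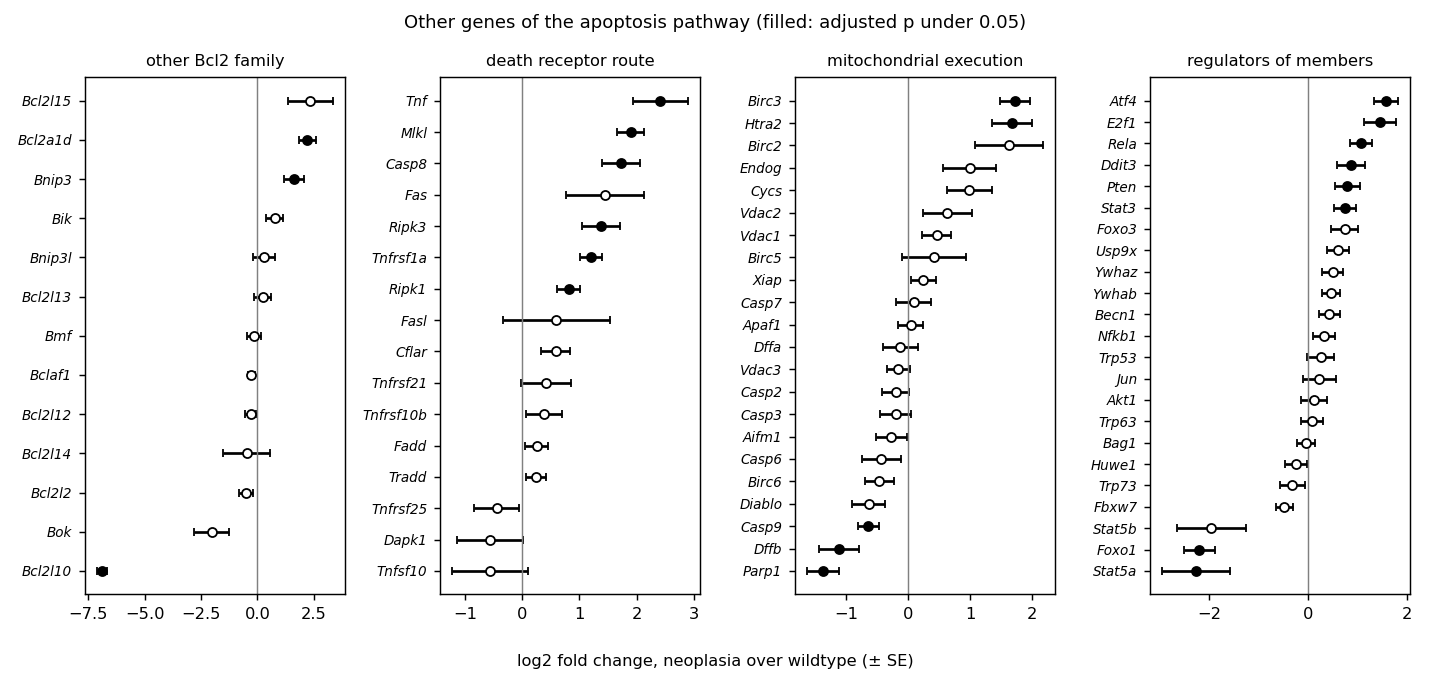
Log2 fold change with its standard error, neoplasia over wildtype, of the tested genes of 4 lists, other Bcl2 family, mitochondrial execution, death receptor route and regulators of the members, with filled points at an adjusted p under 0.05 and a horizontal scale of its own in each panel. Bcl2l10, at a measured -6.89 and below background in neoplasia, lies far from the rest of its list, and the death receptor route has 6 risen genes and no fallen one. Of all features, 15.4% rose and 13.6% fell.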

How the data were processed

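Cy3-labelled total RNA was hybridised to 8 one-colour Agilent mouse arrays (5 neoplasia, 3 wildtype) on 1 slide. The deposited scanner files hold processed spot intensity on a linear scale. Per the file headers, the background had been subtracted by Agilent Feature Extraction 11.0.1.1, with a grid on build mm9. The authors' deposited value table holds log2 values. Each of 37932 rows equalled, within 0.001, log2 of the average processed intensity over spots that share an accession, so the table is neither centred nor scaled between arrays. Partek is named in the submitters' processing notes, with no role given.

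From the processed intensity, log2 values were taken relative to the 75th percentile of each array over the 59305 non-control spots, and spots of a probe were averaged. A probe was tested if it was well above background on 3 or more arrays. The test was limma's (version 3.58.1, R 4.3.3), with lmFit and eBayes, two-sided, and Benjamini-Hochberg adjustment over all features at 0.05. No spot was saturated. RefSeq's gene table (GRCm38.p6) gave 26582 of 55681 probes 1 symbol each by accession and left 29099 unnamed. The probe with the highest mean stood for a gene and unnamed probes for themselves. For a gene below background throughout a group, the fold is a bound, computed against the lowest signal above background or its own, whichever was higher. Summed marker levels are sums of 2 to the power of the log2 values. The test was checked on simulated data. The number of arrays limits the precision.

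The members and gene lists were chosen with earlier results of these data known. The rule for named genes takes all members, every gene of the other family list, and up to 4 risen and 4 fallen genes of each other list. Alternatives were normexp (offset 50, on median foreground and background intensity, the columns at hand), quantile normalization, scaling on 5 of 10 E1A spike-in probes, other filters, the mean over probes of a gene, eBayes with trend, blocks for replicate number and for slide row, the second row by itself, the authors' values, a threshold of 0.01 and leaving out each array. Row 1 held neoplasia arrays alone, so it gives no value of its own. Same-numbered arrays of the groups did not deviate together (correlations over features of -0.048, -0.029 and -0.010), so the numbers were not taken to pair them.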

Additional observations from a re-analysis of the deposited data

Results flagged for a closer look

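Each of 42 sets of 5 neoplasia values was checked for an array far from the others, and 3 sets had one, all in neoplasia 5. Chance alone gives about 1 in 20. The second Bcl2l1 probe (A_52_P510877) read 0.39 in neoplasia 5, with the nearest other neoplasia array at 1.28, a gap of 0.787 of the group's range where 0.71 is the limit. The second Mcl1 probe (A_52_P93933) read 2.97 in neoplasia 5, with the nearest at 1.40 and a gap of 0.868 of the range. Dffb read -2.49 in neoplasia 5, with the nearest at -3.52 and a gap of 0.803 of the range. The array correlated best of the neoplasias with the wildtype arrays over features and shared their slide row, and the part of neither was tested.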

How the results depend on the processing

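Over 20 alternatives, Pmaip1 was called higher in 20, Bcl2l1 in 19, Bcl2l11 in 17, Bbc3 in 16 and Bax in 11. The count of members called higher was 2 under spike-in scaling, 3 on the authors' values and 1 with slide row as a block, and 4 to 6 when 1 array was left out, with 0 called lower in each. The calls over all features moved too. As reported, 4531 of 29453 features were higher and 4013 lower. Under spike-in scaling 810 were higher and 4876 lower, and with slide row as a block 787 and 1027. On the authors' values 1528 of 25227 were higher and 6133 lower. Without 1 array 1383 to 6128 were higher. The median of the survival members was -0.036 under quantile normalization, -0.072 under spike-in scaling, 0.058 on the authors' values and 0.97 in both slide row fits, and 0.41 to 0.64 without 1 array. That of the death members was 0.43, 0.23 and 0.35 under the first 3 of these settings and 0.68 to 0.98 without 1 array. In both slide row fits it was 0.86, the value of Bax, so that the death members had the lower median there. Under the replicate block 4 members remained called higher, and Bax was lost (0.84, adjusted p 0.103).

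In the other Bcl2 family, the count of risen genes was 1 under quantile normalization, spike-in scaling, the replicate block, slide row as a block and a threshold of 0.01, 4 in slide row 2 alone and 1 to 3 without 1 array, and that of fallen genes was 2 under quantile normalization, spike-in scaling and the replicate block, 5 on the authors' values, 0 with the filter for all 8 arrays and 1 to 2 without 1 array. In the execution list, risen genes numbered 0 under spike-in scaling, 1 in both slide row fits and 2 to 5 without 1 array, and fallen genes 5 under quantile normalization, 7 on the authors' values, 1 with no filter, the replicate block and a threshold of 0.01, 0 with slide row as a block and 1 to 3 without 1 array. Risen genes of the death receptor route numbered 1 under spike-in scaling, 3 under the replicate block, 2 with slide row as a block and 4 to 7 without 1 array. Risen regulators numbered 3 under quantile normalization, no filter and the replicate block, 0 under spike-in scaling and slide row as a block, 2 in slide row 2 alone and on the authors' values, 1 at a threshold of 0.01 and 1 to 6 without 1 array, and fallen regulators 4 under normexp, 5 under quantile normalization, 7 on the authors' values, 1 with no filter, the replicate block and a threshold of 0.01, 0 with slide row as a block and 1 to 3 without 1 array.

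These differences changed sign. In both slide row fits, Bcl2 was 0.087, Bad -0.097, its second probe -0.044, Bok 0.48, Bcl2l13 -0.76 and Trp53 -0.43. Under spike-in scaling, Mcl1 was -0.072, its second probe -0.074, Bak1 -0.15, Bid -0.14, Bad -0.026, its second probe -0.027, Bcl2l13 -0.36, Bnip3l -0.30 and Trp53 -0.34. On the authors' values, Bak1 was -0.031, Bid -0.022, Bcl2l13 -0.24, Bnip3l -0.17 and Trp53 -0.215. Under quantile normalization, Mcl1 was -0.036, Bcl2l13 -0.082 and Bnip3l -0.26. Under the replicate block, Bmf was 0.14, Bcl2l14 0.49 and Bnip3l -0.089. Bcl2l14 was 0.13 under normexp. Without 1 array, Bcl2 ranged from -0.38 to 0.0018, Bcl2l14 from -1.40 to 0.14 and Bnip3l from -0.0093 to 0.53. The cause of these changes was not tested. Slide row 2 alone holds 1 neoplasia array, so its tests assume that neoplasias vary as wildtype arrays do.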

Other observations

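The neoplasias did not share 1 pattern over the 10 members. Neoplasia 1 had the highest level of the group for Bcl2l1, Bax, Pmaip1 and Bcl2l11 (4 of 10 members, where it was highest for 25.3% of 29411 features) and the lowest for Mcl1 and Bak1. Neoplasia 5 had the lowest level for Bcl2l1, Bbc3, Bcl2l11 and Bad (4 of 10, where it was lowest for 32.8% of features) and the highest for Mcl1 and Bid. Neoplasia 2, which had the lowest Pmaip1 level of 2.61, had the highest Bbc3 level of 1.69. Neoplasia 3 and 4 stood at the ends for Bcl2, with 0.70 in neoplasia 3 and -0.81 in neoplasia 4. The share of members at either end was not tested against these backgrounds.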
